A study of Mus musculus with 7 samples.

Results

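The transcripts that carry the insulin signal from the insulin and IGF1 receptors through IRS, PI3K and AKT to mTOR and FOXO were examined in mature adipocytes with and without the short-chain fatty acid receptor FFA2. They comprise 35 named genes, listed by name for their place in the pathway, out of 57010 gene rows in the count table. All 35 matched a single row by gene symbol, and all 35 passed the filter on low counts that left 17039 genes for testing. Of these, 23 pass the signal on (the positive arm) and 12 restrain it or are switched off by it (the negative arm). RNA came from perigonadal fat of male mice aged 20 weeks and fed standard chow (Teklad LM-485). There were 3 libraries from FFA2 fl/fl littermate controls and 4 from Adipoq-F2-KO mice. The paper describes the genotypes as co-housed up to 12 weeks of age. Both genotypes carried floxed FFA2 alleles. Adipoq-F2-KO mice also carried Cre recombinase driven by the adiponectin promoter, which is active in adipocytes, whereas the controls are described only as floxed, so an effect of Cre itself and of FFA2 loss cannot be told apart. Adipocytes were freed with collagenase, and poly-A RNA was sequenced as strand-specific paired reads. The labels do not say whether each library is a single mouse, so the spread between libraries may be partly technical.

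Insulin binding activates the receptor tyrosine kinase, which phosphorylates the docking proteins IRS1 and IRS2. These recruit PI3K, whose lipid product PIP3 brings PDK1 and AKT to the membrane. AKT then releases mTORC1 from the TSC complex, holds FOXO factors out of the nucleus and inhibits GSK3. In adipocytes this route moves the glucose transporter GLUT4 to the cell surface, restrains lipolysis and supports lipid storage, mostly through AKT2. These are steps of protein modification, so transcript levels describe the supply of the parts and not the activity of the route.

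Counts assigned to genes totalled 30478997 to 39992605 per library, with both mates of a read pair counted. Ffar2, the deleted gene, was measured as CPM, its share of the reads of a library scaled to a common size. It was at 37.5, 33.9 and 32.0 CPM in FFA2 fl/fl 1 to 3 and at 1.68, 1.15, 1.33 and 2.58 CPM in Adipoq-F2-KO 1 to 4, a log2 fold change of -4.36 ± 0.22 (SE; edgeR quasi-likelihood test, adjusted p = 8.0e-06). Mitochondrial transcripts took 4.41% to 5.77% of counts in the controls and 6.61% to 10.3% in the knockouts. The labelled cell type was in evidence: the 15 adipocyte markers summed to 56950 to 62670 CPM in the controls and 44820 to 57290 in the knockouts, with Cfd the highest. No marker of this list passed the test in edgeR, and 12 of 15 were lower in the knockouts. DESeq2, another test on the counts, called 3 of the 15 lower and 0 higher. Over all genes it called 1.72% lower and 5.03% higher. Markers of other cells were present too: macrophage markers summed to 823 to 1008 CPM in the controls and 1118 to 1343 in the knockouts, with 17 of 19 tested higher and Lyz2 and Cd68 past the test. Endothelial markers were higher for 12 of 12 (1165 to 1574 CPM against 1559 to 2660) and fibroblast progenitor markers for 11 of 12 (930 to 1246 CPM against 1336 to 1681), none past the test in edgeR. DESeq2 called 10 macrophage, 5 endothelial and 2 fibroblast progenitor markers higher and 0 lower. Adipoq-F2-KO 4 had the highest sums of these 3 lists and the lowest adipocyte sum. Lists of other cell types did not all rise. Of their tested markers, 5 of 5 erythroid and 2 of 7 mesothelial markers were higher in the knockouts. The same held for 1 of 3 neutrophil, 0 of 6 T and B cell and 0 of 1 epididymal epithelium markers. None of these passed the test in edgeR. Fewer cells of a type and less RNA per cell cannot be told apart in such bulk samples, and the part these lists play in the values below was not tested.

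No member passed the test across all genes: 0 of 35 had an adjusted p under 0.05 in edgeR, where 1.02% of all tested genes did (0.798% higher and 0.217% lower in the knockouts). The lowest adjusted p of a member was 0.0554, for Pik3r3. By limma voom (1.22% of all genes) and by edgeR with the replicate number as a block (1.31%) the count was also 0. DESeq2, which called 6.75% of the genes it gave an adjusted p, called 3 members (8.57%), with Pik3r3 and Igf1r higher (5.03% of genes were called higher) and Akt2 lower (1.72% were called lower). At an unadjusted p under 0.05, edgeR counted 9 members (25.7%) against 17.9% of all genes. Of these 9, 4 were higher (Pik3r3, Igf1r, Sos1 and Ptpn1) against a background of 10.5%, and 5 were lower (Akt2, Mtor, Eif4ebp1, Pik3r2 and Rptor) against 7.37%. For 12 members (34.3%) all knockout libraries lay on the same side of all controls, 4 of them higher and 8 lower, against 17.6% of all genes (8.86% higher and 8.72% lower).

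Differences were small for most members. Below the control level were 20 of 35 (57.1%), against 49.6% of all genes, and the median log2 fold change was -0.07, against 0.00 for all genes. Without regard to sign the median was 0.17, against 0.23 for all genes. No background matched for expression level was drawn, here or for the shares above. For 21 members the log2 fold change was under 0.2 in size, and for 25 the 95% interval lay within ±0.5. Standard errors ran from 0.08 to 0.21 on the log2 scale. The plot of each member by library shows the separated members, and the plot of fold changes shows their intervals.

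**Figure D1:**
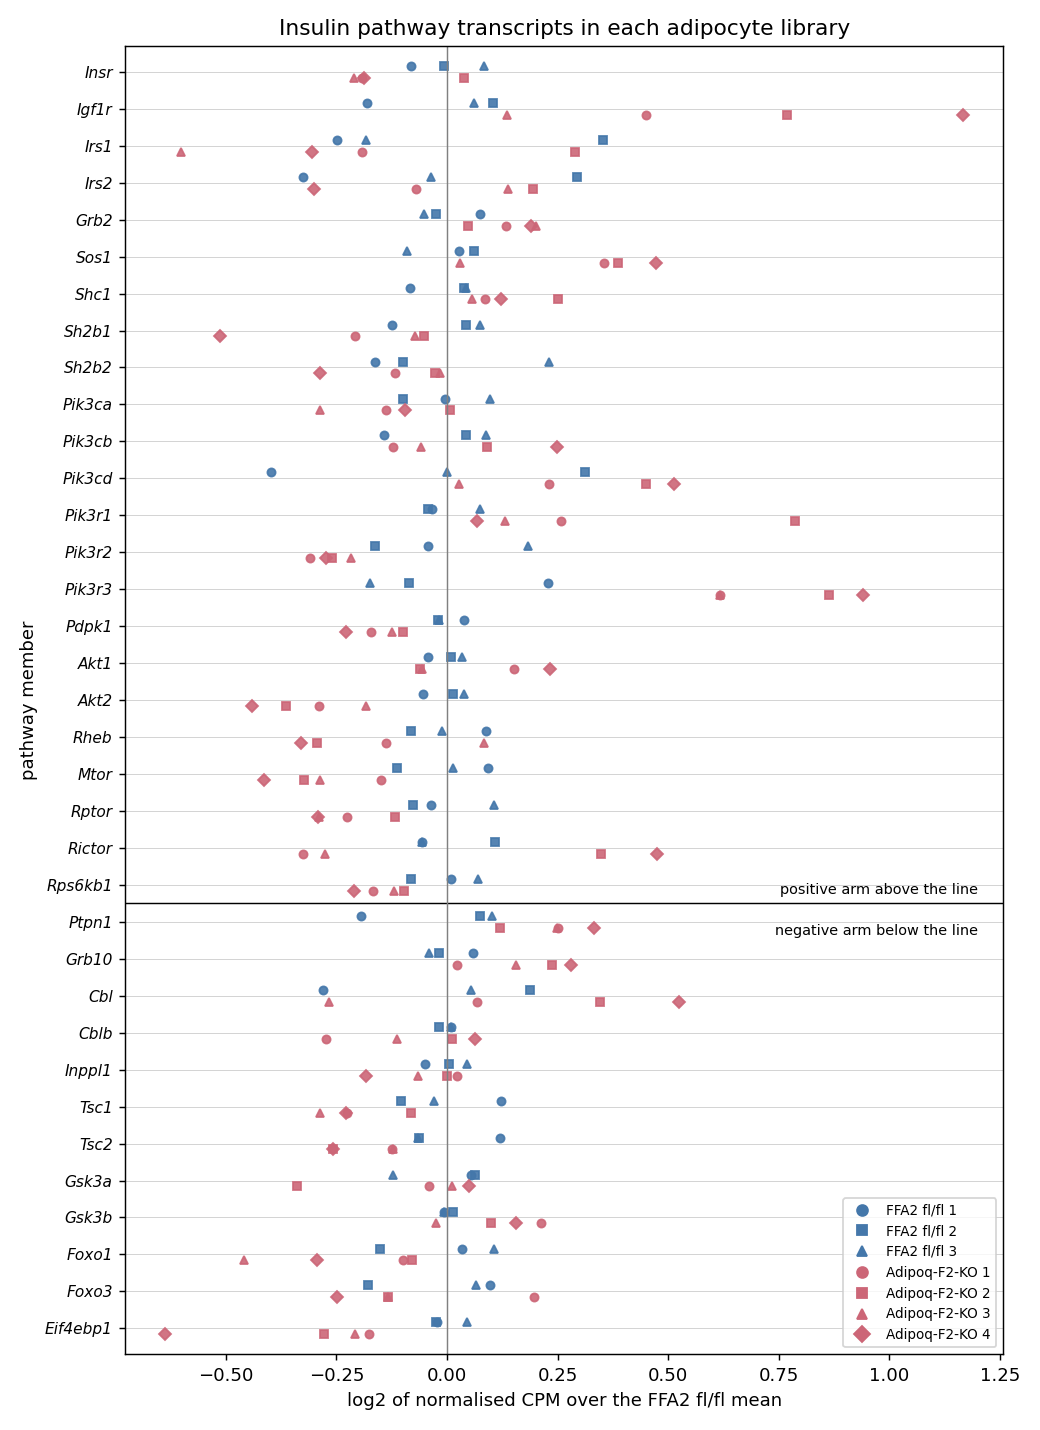
Normalised CPM of each of the 35 members in each library, as log2 of its ratio to the FFA2 fl/fl mean (x axis); blue symbols are the 3 FFA2 fl/fl libraries and red symbols the 4 Adipoq-F2-KO libraries, with the 23 positive-arm members above the line and the 12 negative-arm members below it. Pik3r3 and Igf1r lie farthest to the right in the knockouts, and Akt2, Mtor and Eif4ebp1 lie to the left of all controls.

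**Figure D2:**
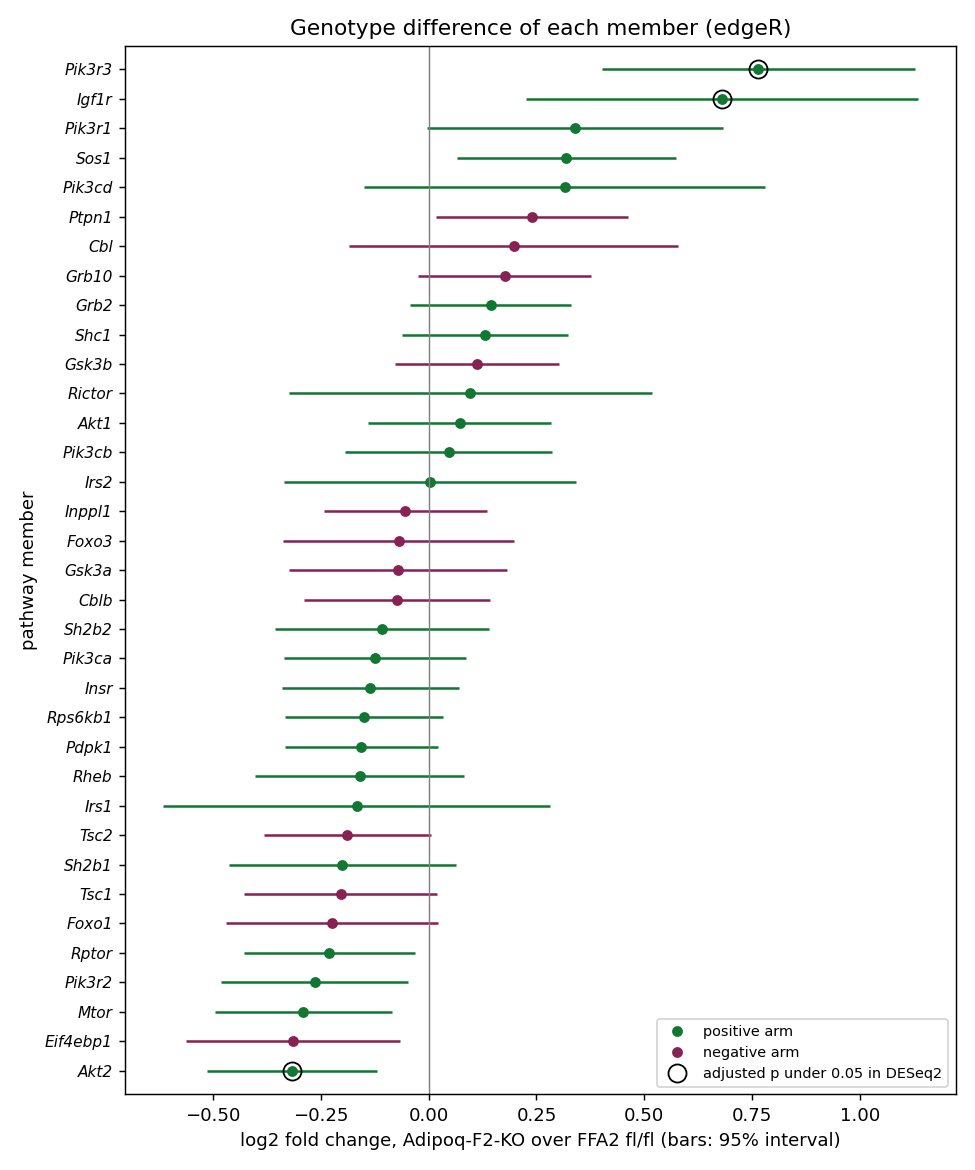
Log2 fold change of each member, Adipoq-F2-KO over FFA2 fl/fl, from edgeR with its 95% interval (x axis), in order of size; green marks the positive arm, purple the negative arm and a ring the 3 members with an adjusted p under 0.05 in DESeq2. Members of both arms lie on both sides of 0, from -0.32 for Akt2 to 0.76 for Pik3r3.

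Upstream sequence is shown for the 3 members that DESeq2 called and for Pik3r2, whose difference was opposite in sign to that of its relative Pik3r3, as the 250 bases before the first listed start of each in the RefSeq annotation of GRCm38.p6. Capitals mark the GC box, the binding motif of SP1-family factors (GGGCGG or, on the other strand, CCGCCC). Igf1r, on the plus strand, is at chr7:67952007-67952256. Pik3r3, on the plus strand, is at chr4:116221166-116221415. Akt2, on the plus strand, is at chr7:27591302-27591551. Pik3r2, on the minus strand, is at chr8:70776713-70776962 and is printed 5′ to 3′ along the gene.
Igf1r: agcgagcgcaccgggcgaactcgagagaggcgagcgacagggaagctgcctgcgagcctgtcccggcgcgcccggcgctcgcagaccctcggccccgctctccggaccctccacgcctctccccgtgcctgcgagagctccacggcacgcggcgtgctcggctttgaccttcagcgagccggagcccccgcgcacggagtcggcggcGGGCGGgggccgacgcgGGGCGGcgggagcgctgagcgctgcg
Pik3r3: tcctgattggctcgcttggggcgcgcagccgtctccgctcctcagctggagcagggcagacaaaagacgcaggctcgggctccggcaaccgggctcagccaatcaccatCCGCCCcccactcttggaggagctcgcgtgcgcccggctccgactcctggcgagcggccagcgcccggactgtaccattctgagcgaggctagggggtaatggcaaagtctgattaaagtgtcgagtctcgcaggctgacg
Akt2: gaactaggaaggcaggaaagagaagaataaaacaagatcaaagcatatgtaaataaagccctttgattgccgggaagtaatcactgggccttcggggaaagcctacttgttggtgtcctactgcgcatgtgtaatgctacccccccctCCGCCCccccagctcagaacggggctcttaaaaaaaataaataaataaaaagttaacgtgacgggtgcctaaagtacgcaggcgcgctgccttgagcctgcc
Pik3r2: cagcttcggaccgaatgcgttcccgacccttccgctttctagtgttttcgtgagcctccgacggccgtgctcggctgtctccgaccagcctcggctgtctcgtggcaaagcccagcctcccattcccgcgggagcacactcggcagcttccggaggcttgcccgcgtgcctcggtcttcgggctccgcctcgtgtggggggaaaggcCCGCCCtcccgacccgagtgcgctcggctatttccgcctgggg

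In these first windows Igf1r holds 2 GC boxes and the others 1 each, upstream of transcripts that were higher and of transcripts that were lower. Akt2 has 4 listed starts, and the windows of its later starts hold no GC box. Pik3r3 has 3 listed starts, with 1 GC box in each window. Which start adipocytes use was not tested. RefSeq windows were found for 33 members (48 windows in all), and 60.4% of them held a GC box, against 32.7% of 32851 mouse windows of the same length. The member windows were also richer in G and C (median 58.8%, against 52.4%). The FOXO motif TGTTTAC (or GTAAACA) was in 1 of the 48 windows, upstream of Akt1 (2.08%, against 3.17% of all windows), and the E-box CACGTG, which reads the same on both strands, was in 3, upstream of Irs1, Irs2 and Rheb (6.25%, against 6.02%). A match is a description of letters and not evidence of binding.

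The 2 receptors stood apart in level. Insr (ENSMUSG00000005534), the insulin receptor, had 13.8 CPM per kb of exon over all libraries, and Igf1r (ENSMUSG00000005533), the receptor of insulin-like growth factor, had 1.54. Insr was at 188, 198 and 211 CPM in FFA2 fl/fl 1 to 3 and at 174, 205, 172 and 175 CPM in Adipoq-F2-KO 1 to 4. The groups overlapped through Adipoq-F2-KO 2, and the log2 fold change of -0.13 had a 95% interval from -0.34 to 0.07 (edgeR, adjusted p = 0.478). Igf1r was at 16.9, 20.6 and 20.0 CPM in the controls and at 26.2, 32.7, 21.1 and 43.0 CPM in the knockouts. Every knockout library lay above every control library, but Adipoq-F2-KO 3 did so narrowly and Adipoq-F2-KO 4 stood well above the rest. The log2 fold change of Igf1r was 0.68 ± 0.21 (SE), with an adjusted p of 0.13 in edgeR and 0.0276 in DESeq2, and it ran from 0.47 to 0.82 when each library was left out in turn. Adipoq-F2-KO 4, the highest library for Igf1r, was also the library with the highest endothelial and fibroblast progenitor sums.

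The docking proteins did not differ beyond the spread between libraries. Irs2, the second most abundant member per exon length (88.4 CPM per kb), was at 446, 685 and 545 CPM in the controls and 532, 639, 614 and 453 CPM in the knockouts. The ranges coincided, and the log2 fold change of 0.00 had a 95% interval from -0.34 to 0.34. Irs1 was at 23.4, 35.6 and 24.5 CPM in the controls and 24.4, 34.1, 18.4 and 22.6 CPM in the knockouts (log2 fold change -0.17, edgeR adjusted p = 0.713). Per exon length Irs1 stood at 0.0345 ± 0.0029 of Irs2 in the controls and 0.0309 ± 0.0071 in the knockouts (SD).

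Among the adaptors that link the receptor to Ras, Sos1, the exchange factor that loads Ras with GTP, was at 38.3, 39.2 and 35.3 CPM in the controls and 48.0, 49.1, 38.4 and 52.2 CPM in the knockouts. Adipoq-F2-KO 3 fell among the controls and the other 3 knockouts lay above them (log2 fold change 0.32 ± 0.12, edgeR adjusted p = 0.184). Shc1, which couples receptors to GRB2, was at 75.2, 81.9 and 82.1 CPM against 84.6, 94.9, 82.9 and 86.7 CPM, without overlap but by a small margin (0.13 on the log2 scale, edgeR adjusted p = 0.465). The log2 fold change was 0.14 for Grb2, which carries SOS1 to the receptor, -0.20 for Sh2b1 and -0.11 for Sh2b2, adaptors bound to the receptor itself.

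The regulatory subunits of PI3K, which hold the catalytic subunit and dock it on IRS proteins, differed from each other in direction. Pik3r3 (ENSMUSG00000028698), which encodes the p55-gamma form, was at 7.40, 5.95 and 5.60 CPM in the controls and 9.68, 11.5, 9.68 and 12.1 CPM in the knockouts. Its groups were clearly apart, and its log2 fold change of 0.76 ± 0.17 (95% interval 0.40 to 1.13) was the largest of the 35. Its adjusted p was 0.0554 in edgeR and 0.00245 in DESeq2, and its log2 fold change ran from 0.70 to 0.89 with each library left out. Pik3r2 (ENSMUSG00000031834), the p85-beta form, was at 56.1, 51.6 and 65.5 CPM in the controls and 46.6, 48.2, 49.7 and 47.8 CPM in the knockouts. The knockouts lay close together below the lowest control (log2 fold change -0.26 ± 0.10, edgeR adjusted p = 0.197). Pik3r1, the p85-alpha form and the most abundant of the 3 at 32.2 CPM per kb, was at 276, 274 and 297 CPM against 337, 486, 309 and 295 CPM. Adipoq-F2-KO 2 was the high library there, and leaving out each library in turn gave log2 fold changes from 0.16 to 0.42 around 0.34. For the catalytic subunits the log2 fold change was -0.12 for Pik3ca, 0.05 for Pik3cb and 0.32 ± 0.21 for Pik3cd, the member with the lowest level per kb (1.01 CPM), whose 95% interval ran from -0.15 to 0.78.

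Because both transcripts of a ratio come from the same library, ratios between related members were set side by side as a description, with no test. Of 14 ratios, 4 did not overlap between genotypes, and no share over other gene pairs was computed. Each of these 4 holds a member that was already without overlap on its own (Igf1r, Pik3r3, Pik3r2 or Akt2). The ratios therefore restate those members and are not further support. Per kb of exon, Pik3r3 stood at 0.0873 ± 0.0186 of Pik3r2 in the controls and 0.176 ± 0.0212 in the knockouts (SD, n = 3 and 4), and Pik3r2 stood at 0.493 ± 0.0391 and 0.338 ± 0.0709 of Pik3r1. Igf1r stood at 0.0787 ± 0.0059 of Insr in the controls and 0.139 ± 0.0437 in the knockouts, so the insulin receptor was by far the more abundant in each library. Akt1 stood at 0.433, 0.429 and 0.428 of Akt2 in the controls and at 0.584, 0.531, 0.469 and 0.686 in the knockouts. The controls were nearly equal in that ratio, and every knockout was higher. The ratio plot shows these 4 beside the ratios of Irs1 to Irs2 and of Rictor to Rptor, which overlapped.

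**Figure D3:**
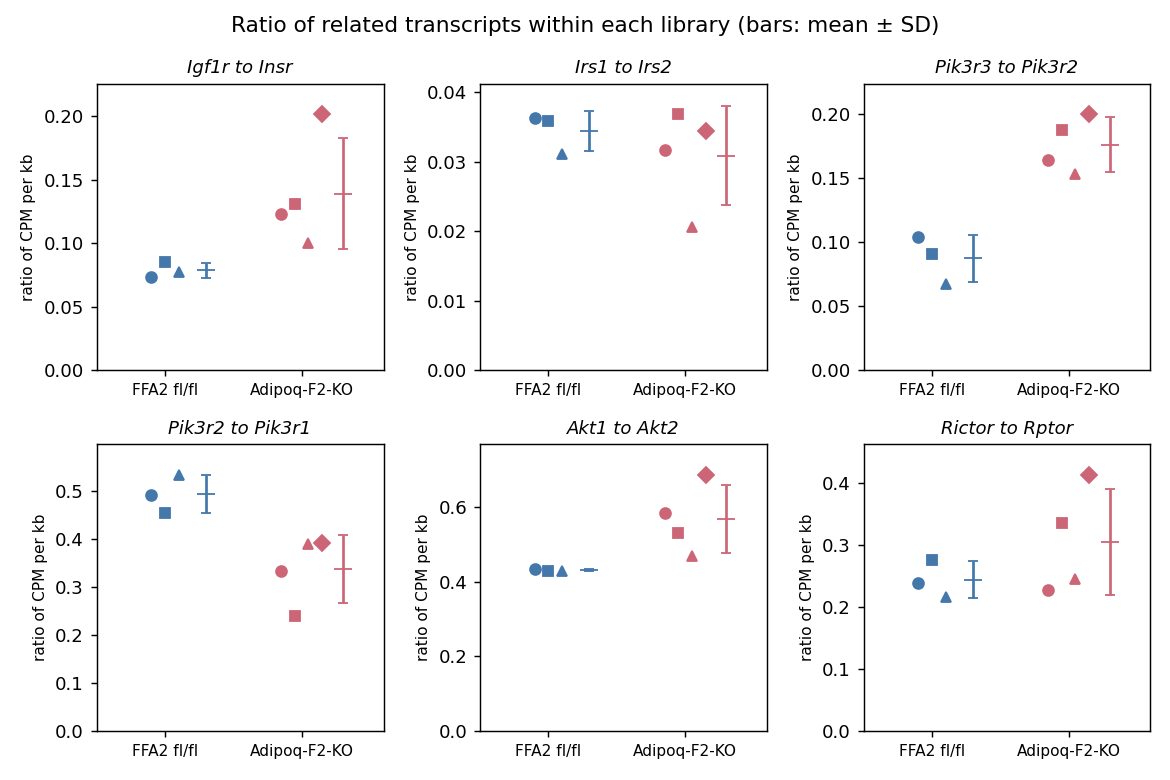
Ratio of related transcripts within each library, as CPM per kb of exon of the first gene over the second (y axis, from 0), for 3 FFA2 fl/fl libraries (blue) and 4 Adipoq-F2-KO libraries (red); symbols are libraries and bars the mean ± SD. The genotypes do not overlap for Igf1r to Insr, Pik3r3 to Pik3r2, Pik3r2 to Pik3r1 and Akt1 to Akt2, and overlap for Irs1 to Irs2 and Rictor to Rptor.

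Of the kinases after PI3K, Akt2 and Pdpk1 lay below all controls and Akt1 did not. Akt2 (ENSMUSG00000004056), the AKT form that adipocytes use for glucose uptake and the third most abundant member per exon length (54.1 CPM per kb), was at 418, 439 and 446 CPM in the controls and 356, 338, 383 and 320 CPM in the knockouts. All 4 knockouts lay below all controls. The log2 fold change of -0.32 ± 0.09 (95% interval -0.51 to -0.12), or -19.7%, had an adjusted p of 0.111 in edgeR and 0.0168 in DESeq2 and ran from -0.36 to -0.28 with each library left out. Pdpk1, which encodes PDK1, the kinase that primes AKT, was at 88.9, 85.5 and 85.5 CPM against 76.9, 80.9, 79.4 and 73.9 CPM, again without overlap (-0.16 on the log2 scale, edgeR adjusted p = 0.338). Akt1, the widely expressed AKT form, did not share this pattern: it was at 104, 108 and 110 CPM in the controls and 119, 103, 103 and 126 CPM in the knockouts, on both sides of the control range (log2 fold change 0.07, 95% interval -0.14 to 0.29). The adipocyte marker list, whose median log2 fold change was -0.28, lay on the same side as Akt2.

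Within the mTOR group, 4 of 5 members were lower. Mtor, the kinase itself, was at 134, 116 and 127 CPM in the controls and 113, 100, 103 and 94.0 CPM in the knockouts (log2 fold change -0.29 ± 0.09, edgeR adjusted p = 0.147). Rptor, which encodes the RAPTOR scaffold of mTORC1, was at 67.7, 65.8 and 74.8 CPM against 59.4, 64.0, 56.8 and 56.7 CPM (-0.23 on the log2 scale, edgeR adjusted p = 0.216). Rps6kb1, the S6 kinase that mTORC1 activates, was at 74.6, 70.0 and 77.8 CPM against 66.0, 69.2, 68.2 and 64.0 CPM (-0.15 on the log2 scale, edgeR adjusted p = 0.379). None of these 3 overlapped between genotypes, although the gap was narrow for each of them. Over all genes, 8.72% were lower without overlap. Rheb, the GTPase that switches mTORC1 on, had a log2 fold change of -0.16, and Rictor, the scaffold of mTORC2, had 0.10 with a 95% interval from -0.32 to 0.52.

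In the negative arm, the inhibitors that act at the receptor or on PIP3 were spread on both sides of the controls. Ptpn1, which encodes the phosphatase PTP1B that dephosphorylates the insulin receptor, was at 45.4, 54.7 and 55.7 CPM in the controls and 61.8, 56.4, 61.7 and 65.4 CPM in the knockouts, without overlap (log2 fold change 0.24 ± 0.10, edgeR adjusted p = 0.248). The log2 fold change was 0.18 for Grb10, an adaptor that blocks the receptor kinase, 0.20 for Cbl and -0.07 for Cblb, ubiquitin ligases, and -0.05 for Inppl1, which encodes the PIP3 phosphatase SHIP2. The TSC complex, the brake on mTORC1, was lower for both subunits among the members: Tsc2 was at 169, 148 and 148 CPM against 142, 130, 143 and 130 CPM, without overlap (-0.19 on the log2 scale, edgeR adjusted p = 0.292), and Tsc1 had a log2 fold change of -0.20.

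Proteins that AKT or mTORC1 switches off were represented by 5 members, 4 of them lower. Eif4ebp1, which encodes the translation repressor 4E-BP1 and had the highest level per kb of the 35 (167 CPM), was at 406, 406 and 426 CPM in the controls and 365, 341, 357 and 266 CPM in the knockouts. The controls were close together, all knockouts lay below them, and Adipoq-F2-KO 4 was the lowest (log2 fold change -0.31 ± 0.11, edgeR adjusted p = 0.184). Foxo1, the main FOXO factor of fat, was at 113, 99.5 and 119 CPM against 103, 105, 80.5 and 90.3 CPM, with overlap (-0.22 on the log2 scale, edgeR adjusted p = 0.32). Foxo3 had a log2 fold change of -0.07, Gsk3a of -0.07 and Gsk3b, the other GSK3 form, of 0.11.

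**Figure D4:**
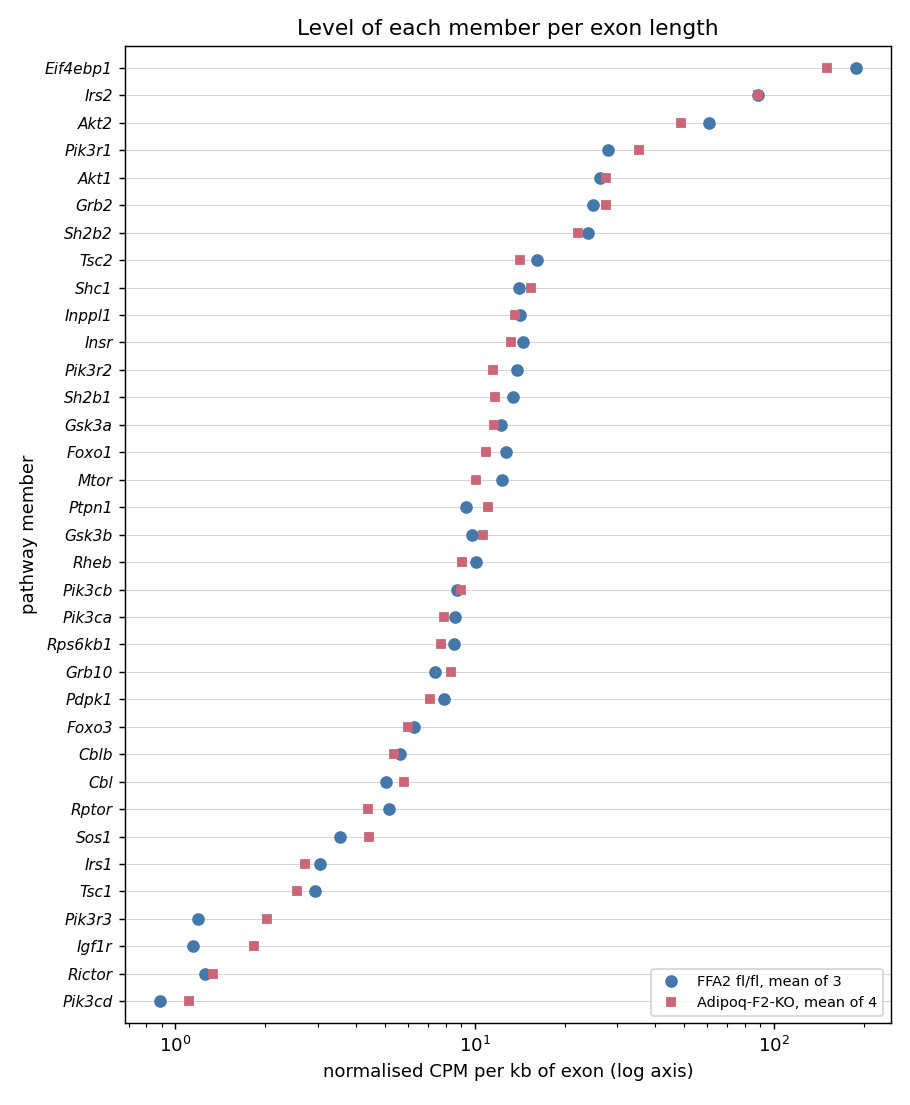
Normalised CPM per kb of exon of each member on a log axis (x axis), as the mean of 3 FFA2 fl/fl libraries (blue circles) and of 4 Adipoq-F2-KO libraries (red squares), in order of the level over all libraries. Levels run from Eif4ebp1, Irs2 and Akt2 at the top to Igf1r, Rictor and Pik3cd at the bottom, and the distance between genotypes is small beside the range between genes.

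Set against each other, the medians of both arms lay slightly below 0. In the positive arm 11 members were higher and 12 lower, and their median log2 fold change was -0.11, and in the negative arm 4 were higher and 8 lower, and their median was -0.07. At an unadjusted p under 0.05, the positive arm counted 3 higher and 4 lower and the negative arm 1 higher and 1 lower, where 10.5% of all genes were higher and 7.37% lower. A mean over the centred log2(CPM + 0.5) values of each arm was taken per library. For the positive arm it was -0.07, 0.02 and 0.02 in the controls and -0.03, 0.11, -0.07 and 0.01 in the knockouts, which overlapped fully. For the negative arm it was 0.02, 0.01 and 0.04 in the controls and 0.01, -0.0018, -0.08 and -0.01 in the knockouts, where Adipoq-F2-KO 1 reached the control range. Limiting the positive arm to 15 members, without adaptors and PI3K regulatory subunits, gave a median of -0.13, and limiting the negative arm to the 7 inhibitors and TSC subunits gave -0.05. The median of the positive arm did not keep its sign in every fit: it was 0.05 without FFA2 fl/fl 2 and -0.0027 without FFA2 fl/fl 3. The plot of arms beside marker lists shows how small these shifts are against those of the macrophage, endothelial and fibroblast progenitor lists. Each arm mean averages members that were higher with members that were lower, so opposite differences cancel in it.

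**Figure D5:**
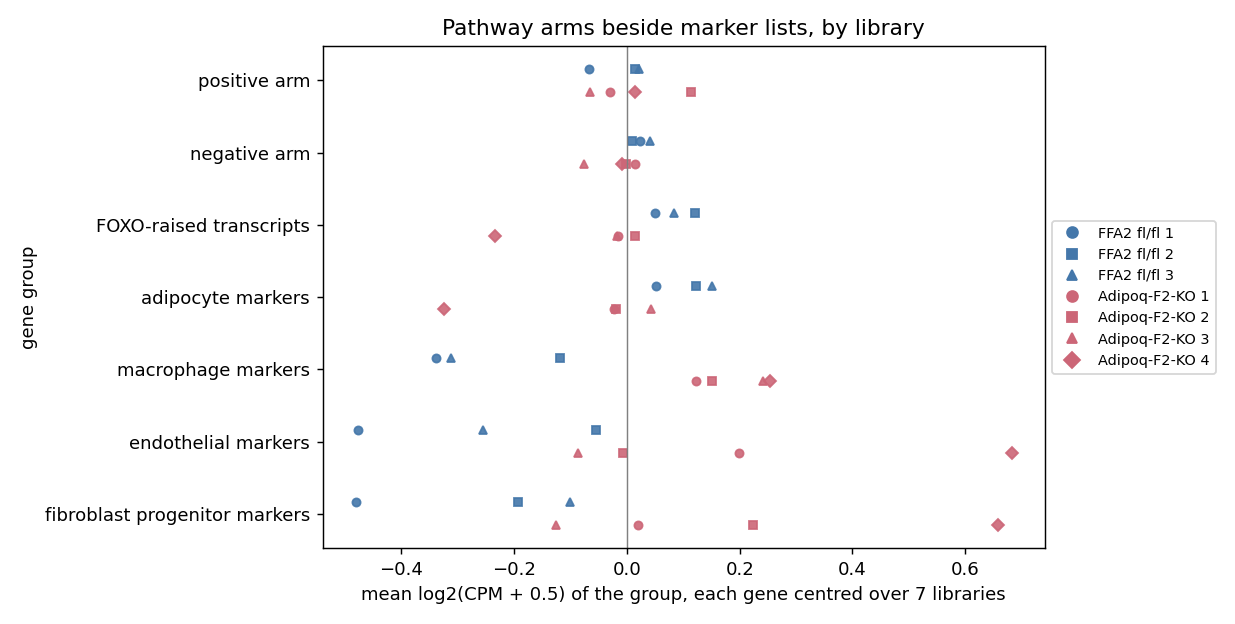
Mean log2(CPM + 0.5) of each gene group per library, each gene centred over the 7 libraries (x axis), for the pathway arms, transcripts raised by FOXO and 4 marker lists; blue symbols are FFA2 fl/fl and red symbols Adipoq-F2-KO libraries. The arms stay close to 0 in each library, whereas the macrophage list separates the genotypes and Adipoq-F2-KO 4 lies far from the other libraries in the endothelial and fibroblast progenitor lists.

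A wider list of 115 other genes of the pathway, of which 107 passed the filter on low counts, was read in the same way. Among these, 46 were higher and 61 lower (median -0.01 on the log2 scale). Called by edgeR were 0 higher (0.798% of all genes) and 2 lower (0.217% of all genes). Lpin1, which encodes the phosphatidate phosphatase lipin 1, an mTORC1 substrate that makes diacylglycerol for triglyceride synthesis, was at 1063, 826 and 969 CPM in the controls and 590, 541, 621 and 473 CPM in the knockouts. It was lower in all 4 knockouts by a wide margin (log2 fold change -0.78 ± 0.12, edgeR adjusted p = 0.0332). Rhoq, which encodes TC10, a GTPase tied to insulin-stimulated glucose uptake, was at 151, 136 and 137 CPM against 102, 102, 111 and 108 CPM (-0.42 ± 0.08 on the log2 scale, edgeR adjusted p = 0.0458). DESeq2 called 8 higher and 4 lower (5.03% and 1.72% of all genes). No overlap between genotypes was seen for 14 higher and 14 lower (26.2% of those tested, against 17.6% of all genes). The next in order of p were Ptprj (log2 fold change 0.83, edgeR adjusted p = 0.0556), Ptpn2 (0.64, 0.0577) and Pik3r5 (0.79, 0.0757), encoding a pair of phosphatases and a PI3K regulatory subunit, none past the test. Among those that followed, Nras, Trib2, Ddit4 and Eif4e were higher, by 0.42, 0.93, 0.50 and 0.33 on the log2 scale, and Ptprf was lower, at -0.33, and none passed the test in edgeR. Enpp1, a receptor inhibitor with a log2 fold change of 2.25, was at no more than 1.63 CPM in any library. Ins1, Ins2 and Irs4 had no read in any library.

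Transcripts that respond to the pathway were read from lists of textbook targets. The FOXO list shares Insr, Irs2 and Eif4ebp1 with the members and Sesn1, Sesn3 and Trib1 with the wider list. Of 16 transcripts raised by FOXO, which insulin lowers, 5 were higher and 11 lower (median -0.11 on the log2 scale), and 0 were called by edgeR. At an unadjusted p under 0.05, 5 of them were lower and 0 higher: Pdk4 (-0.63), Klf15 (-0.55), Cited2 (-0.38), Txnip (-0.37) and Eif4ebp1, which is also a member. Over all genes the shares were 7.37% lower and 10.5% higher. Of these, DESeq2 called Cited2 (adjusted p = 0.011) and Klf15 (adjusted p = 0.049), where 1.72% of all genes were called lower. Of 12 transcripts that insulin raises through SREBP1c, 3 were higher and 9 lower (median -0.16 on the log2 scale). EdgeR called 1 of the 12, which was higher, where 0.798% of all genes were called higher. At an unadjusted p under 0.05 in edgeR, 2 were higher and 2 lower. DESeq2 called 1 higher and 1 lower, against 5.03% and 1.72% of all genes. Slc2a4, which encodes GLUT4, the transporter that the route delivers, belongs to neither list and was read as an adipocyte marker. It was at 217, 222 and 254 CPM against 191, 172, 193 and 167 CPM. Slc2a4 was singled out after its values were seen. All knockouts lay below all controls for Slc2a4, as for Akt2, with a log2 fold change of -0.35 ± 0.09 and an adjusted p of 0.098 in edgeR and 0.0156 in DESeq2. Its marker list lay on the same side, with 12 of 15 lower and a median of -0.28 on the log2 scale. Without overlap were 6 of the 15 lower and 2 higher, against 8.72% and 8.86% of all genes.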

How the data were processed

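Reads had been trimmed (Trimmomatic), mapped (STAR) and assigned to genes (featureCounts) by the authors. The deposited values are raw counts per gene and library, with no normalization, and both mates of a read pair were counted (85.5% to 88.8% of counts from 1 to 49 are even). Tool versions are not given in the sources used here. The submitters' processing notes list GRCm38 and mm10, but gene positions in the count table differ from that build, so none is printed. RefSeq promoter windows were matched by symbol.

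From the counts, edgeR 4.0.16 (filterByExpr, TMM, quasi-likelihood test, Benjamini-Hochberg over 17039 genes, threshold 0.05) compared 4 Adipoq-F2-KO with 3 FFA2 fl/fl libraries. CPM are TMM-normalised. Alternatives were DESeq2 1.42.0, limma voom 3.58.1, other size factors, a filter of at least 1 count, a replicate block and leaving out each library. Scripts were tested on simulated data. The members and lists were chosen with earlier results of these data known. Values per library are given for members that differ without overlap or at an unadjusted p under 0.05 and for 5 further central ones (Insr, Irs1, Irs2, Akt1, Foxo1). Pik3r1 was added after its values were seen. Some genes of the wider lists are not reported here. Each library was counted as a separate sample. Libraries of the same genotype differed by more than sampling noise, which does not show that they came from separate mice.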

Additional observations from a re-analysis of the deposited data

Results flagged for a closer look

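Insr had a single library far from the others in the knockout group. Adipoq-F2-KO 2 was at 205 CPM, whereas the other 3 knockouts lay from 172 to 175 CPM, so that the gap took 0.914 of the range of the group, above the critical value of Dixon's ratio for 4 samples. The same check was run on 38 groups of values, and chance flags about 1 in 20.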

How the results depend on the processing

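Member log2 fold changes carried standard errors of 0.08 to 0.21, and the lowest count of a member in a library was 158. Of 35 members, 0 were called in the edgeR fits with other size factors, with each library left out and with limma voom, 2 with a filter of at least 1 count (Igf1r and Pik3r3) and 3 with DESeq2. Over all genes 173 were called, against 1403 with that filter, 992 with DESeq2 and 1 to 178 with a library left out (1 without FFA2 fl/fl 1, 41 without FFA2 fl/fl 2, 5 without FFA2 fl/fl 3, 11 without Adipoq-F2-KO 2 and 20 without Adipoq-F2-KO 3). The cause was not tested. The median of the positive arm ran from -0.128 to 0.0484 with a library left out. Direction reversed in at least 1 of 13 alternatives for 6 members and in none for 29. With a library left out, log2 fold changes ran from -0.351 to 0.0484 for Irs1, -0.137 to 0.176 for Irs2, -0.184 to 0.0353 for Sh2b2, -0.0276 to 0.104 for Pik3cb, -0.0526 to 0.216 for Rictor and -0.118 to 0.013 for Gsk3a. With the replicate number as a block, Pik3cb was -0.0269 and Rictor -0.0809, 0 members and 224 genes were called, and the block changed no call of a member. Deviations of libraries with the same number correlated at 0.0743, -0.0264 and -0.0404 for numbers 1 to 3. Pairs with unequal numbers ran from -0.131 to 0.123, so the check cannot settle whether equal numbers mark pairs. Only a knockout library has number 4, so Adipoq-F2-KO 4 does not enter the genotype contrast of the block fit.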
